A study of Mus musculus with 16 samples.

Results

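The ventricles of lactating mice that lack natriuretic peptide receptor 1 were compared with those of lactating wild-type mice. The arrays were chosen by their labels: the 4 titled as lactating Npr1-/- and the 4 titled as lactating Npr1+/+, 8 of the 16 arrays in the series. All animals were female, the lactating ones were sampled at 2 weeks of lactation, and each array held ventricular RNA of 1 mouse. The other 8 arrays held nulliparous Npr1-/- and nulliparous Npr1+/+ ventricles, 4 of each. They served the shared estimate of the spread, the choice of genes and probes, and a side-by-side view of the genotype difference outside lactation. The labels used here give no age, strain, litter size or kinship, and they describe the knockout only as Npr1-/-, so how the deletion was made and in which cells cannot be stated from them.

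Npr1 encodes the guanylyl cyclase receptor that binds atrial and B-type natriuretic peptide and makes cyclic GMP inside the cell. The peptides are secreted by stretched heart muscle, and through this receptor they lower blood pressure, promote sodium loss and restrain growth of the heart. Adipocytes also carry the receptor, and in human adipocytes its cyclic GMP promotes release of stored fat. Lactation is a period of high cardiac output and of fat mobilisation into milk, and the comparison asks how ventricular transcripts differ when this receptor is absent during that load.

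A level below is log2 of the processed signal after division by the 75th percentile of the same array (control probes left out), so 0 is that percentile, and a difference is the knockout mean minus the wild-type mean on this log2 scale. Each gene was read by its brightest probe. Of 21154 genes 14063 were tested, those with a probe well above background in every mouse of 1 or more of the 4 groups, and a gene was called at limma's Benjamini-Hochberg adjusted p under 0.05.

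The signal at the 75th percentile was 295.1 to 347.4 on knockout arrays and 278.2 to 309.0 on wild-type arrays, and 51.9% to 56.0% and 52.9% to 58.6% of probes were well above background. All 13 measured cardiomyocyte markers were above background on all 8 arrays, with a mean level of 8.33 to 8.45 in knockout and 8.46 to 8.57 in wild-type ventricles. Each slide carried 2 arrays of each group. Each group also kept its array position on both slides, so position and genotype cannot be told apart. Nulliparous knockout replicate 4 stood apart from its group, with an array weight of 0.157. It entered the lactating comparison through the shared spread, the filter and the choice of probe, and not through the means compared. Leaving it out raised the calls to 48. Across 13973 genes, the correlation between 2 arrays was 0.9883 to 0.9918 within knockout, 0.9882 to 0.9922 within wild-type and 0.9833 to 0.9887 between the genotypes. The first principal component of the 8 arrays held 27.4% of their variance. The knockout arrays lay at 5.71 to 27.7 on it and the wild-type arrays at -21.8 to -14.8.

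The targeted gene could not serve as a check of the genotypes. The 1 probe of Npr1 read -4.26, -3.84, -3.62 and -4.04 on lactating knockout replicates 1 to 4, against -4.68, -3.71, -3.53 and -3.93 on the wild-type replicates. It was well above background on 3 arrays of each lactating group, 2 nulliparous knockout arrays and 1 nulliparous wild-type array. The probe thus failed the filter, and with no filter the difference was 0.02 (limma adjusted p = 0.995). Whether this probe lies inside the deleted sequence cannot be read from the files, and the genotypes rest on the labels.

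Few genes separated the lactating genotypes. Of 14063 genes, limma called 28 (0.199%), of which 9 were higher (0.064%) and 19 lower (0.135%) in knockout ventricles, and 19 of the 28 differed by 2-fold or more, 6 higher and 13 lower. At an unadjusted p under 0.05 there were 1285 genes (9.14%), 596 higher (4.24%) and 689 lower (4.9%). All 4 knockout arrays lay above all 4 wild-type arrays for 454 genes (3.23%) and below them for 638 (4.54%), and all 28 called genes were among these. The median difference over all tested genes was -0.0005. The split of calls moved with the scaling: centring each array on its median gave 11 higher and 11 lower, and normexp background correction 19 higher and 25 lower.

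**Figure D1:**
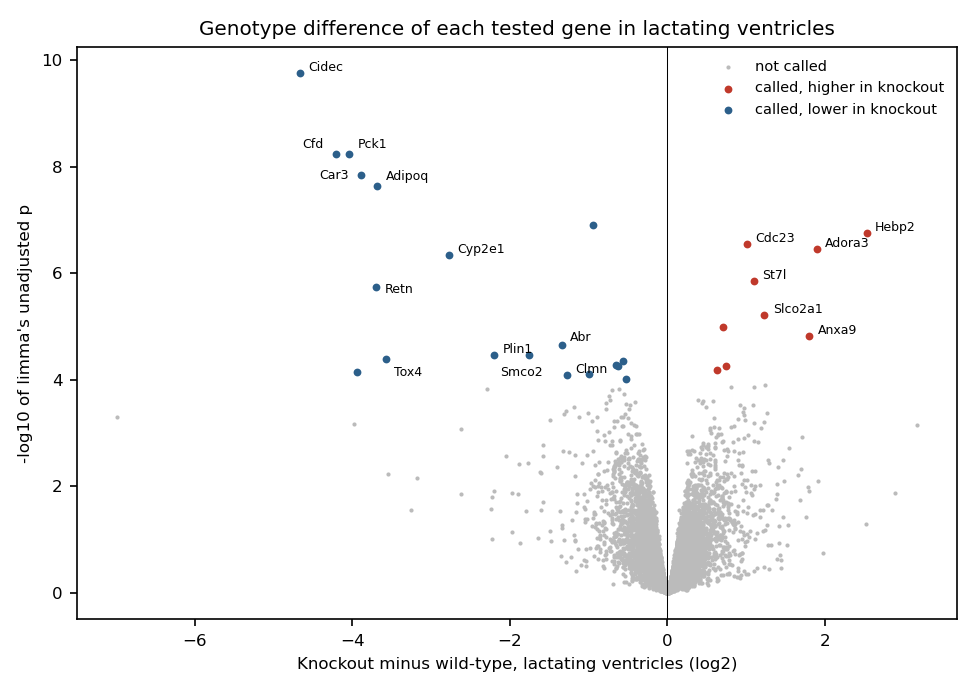
Each point is 1 of 14063 tested genes, placed by its knockout minus wild-type difference in lactating ventricles (log2, horizontal) and the -log10 of limma's unadjusted p (vertical). Coloured points are the 28 called genes, and those that differ by 1 log2 unit or more are named, except 1. The 19 lower genes reach further from 0 than the 9 higher ones.

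Adipocyte transcripts fell in knockout ventricles. Of 9 listed adipocyte markers 7 were tested, and limma called 6 of these lower and 0 higher, where 0.135% of all genes were called lower. Of the 6, Adipoq, Cidec, Pck1, Plin1 and Retn passed the filter only through wild-type arrays, where they were high, so the count is a description and is not set against that share. The mean level of the tested markers was -3.88 to -2.81 in knockout and -0.50 to 0.37 in wild-type ventricles, with no overlap. The median difference of the 7 was -3.70, and -3.48 with the 2 genes that were not above background in knockout set at their bound. In bulk tissue, fewer cells of a type and less RNA per cell cannot be told apart.

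Adipocytes secrete 3 of these products. Adipoq, which encodes the insulin-sensitising hormone adiponectin, read -5.30, -4.43, -3.92 and -5.07 on knockout replicates 1 to 4, against -1.23, -1.03, -1.33 and -0.39 on the wild-type replicates, and was above background on 1 knockout array. The difference was -3.69 ± 0.34 (SE, limma adjusted p = 6.43e-05). Cfd, the complement protease adipsin, read -1.67, -1.80, -1.86 and -2.10 in knockout, against 2.12, 2.98, 1.41 and 2.90 in wild-type ventricles. It was above background on all 8 arrays and fell by 4.21 ± 0.35 (adjusted p = 2.75e-05). Retn, the hormone resistin, read -3.64, -3.71, -3.16 and -5.66 in knockout, against -1.05, -0.08, -0.62 and 0.38 in wild-type ventricles. Its difference was -3.70 ± 0.48 (adjusted p = 0.0021), and its second probe differed by -3.79.

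The other 3 serve fat storage. Cidec, which coats and fuses large lipid droplets, was not well above background on any knockout array and was on all 4 wild-type arrays, where it read -1.26, -0.90, -1.82 and -0.51. With each knockout array set at its lowest signal well above background, Cidec was 11.1-fold lower in knockout ventricles. The fit to the readings themselves gave a limma adjusted p of 2.45e-06. Pck1, the cytosolic carboxykinase that feeds glycerol synthesis in fat, read -1.56, -2.40, -1.95 and -1.71 on the wild-type arrays. It was likewise not well above background on any knockout array and was 6.47-fold lower at that bound (adjusted p of the readings = 2.75e-05). Plin1, the perilipin of the fat droplet surface, read -5.63, -5.64, -4.65 and -6.56 in knockout, against -3.69, -3.36, -3.70 and -2.92 in wild-type ventricles. Its difference was -2.20 ± 0.37 (adjusted p = 0.0269), and 1 knockout array was above background. The Plin1 call ended when any 1 of 7 arrays was left out (adjusted p up to 0.0844).

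The remaining adipocyte markers were not called. Cidea, a droplet protein that heart muscle also makes, averaged 4.85 ± 0.10 in knockout and 4.70 ± 0.13 in wild-type ventricles (SD, n = 4 each; limma adjusted p = 0.771). The hormone gene Lep and the brown fat uncoupler Ucp1 were not well above background on any of the 8 arrays. The lipid genes Fabp4, Plin4, Lipe, Cd36, Lpl and Pparg were not called either (limma adjusted p from 0.376 to 0.970). Fabp4 differed by -0.16 ± 0.14, Plin4 by -0.43 ± 0.28 and Lipe by -0.43 ± 0.34. Cd36 differed by -0.09 ± 0.08, Lpl (whose arrays did not overlap) by -0.35 ± 0.13 and the fat regulator Pparg by -0.08 ± 0.16.

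**Figure D2:**
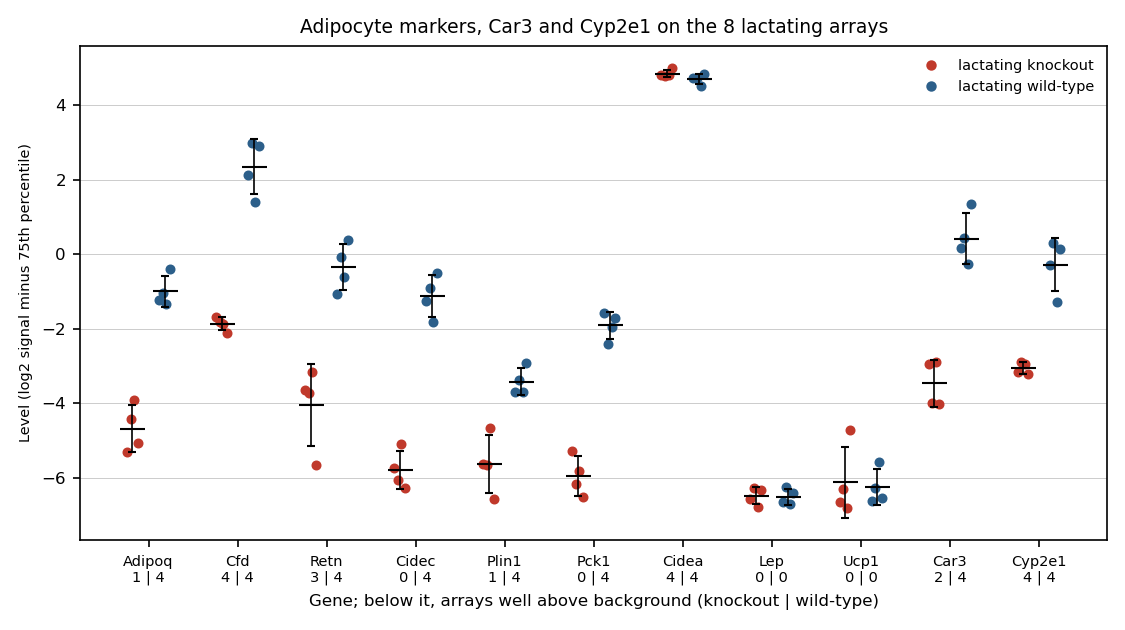
Levels (log2 signal minus the 75th percentile) of the 9 adipocyte markers and of Car3 and Cyp2e1 on each of the 8 lactating arrays. Points are arrays, knockout left of wild-type, lines are the mean ± SD of 4, and the numbers under a gene count arrays well above background. Cidea, Lep and Ucp1 overlap between genotypes, and the other 8 genes do not.

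Car3 and Cyp2e1, both abundant in fat, fell with them. The carbonic anhydrase Car3 read -2.95, -4.00, -2.88 and -4.03 in knockout, against 0.17, 0.43, -0.26 and 1.35 in wild-type ventricles, a difference of -3.89 ± 0.34 (limma adjusted p = 4.92e-05), with 2 knockout arrays above background. The cytochrome Cyp2e1 read -3.15, -2.90, -2.95 and -3.21 in knockout, against -0.30, 0.31, -1.28 and 0.14 in wild-type ventricles, a difference of -2.77 ± 0.32 (adjusted p = 0.000633). Neither gene's arrays overlapped. Both lay on no list, and the labels do not say how fat around the heart was trimmed, so its part in these differences was not tested.

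The size of these differences depended on how the signal was made. After normexp, which started from median spot signals in place of processed ones and added an offset of 50, 16 of the 28 called differences were over 1.5 times smaller. The adipocyte median was then -1.57, with Plin1 at -0.59, Pck1 at -1.28, Cidec and Adipoq at -1.57, Retn at -1.87, Car3 at -2.32 and Cfd at -3.55, and each of these was still called. The bounds given for Cidec and Pck1 hold for the processed signal, and their normexp differences were smaller than those bounds. Leaving out 1 lactating or nulliparous array at a time moved the adipocyte median between -3.99 and -3.48.

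The 300 bases around the annotated starts of the 6 lower adipocyte genes were searched because these genes moved together. RefSeq (GRCm38.p6) gave 7 such promoters, from 250 bases before to 50 after a start, for the 6 genes. The letters TTGCNNAA, a C/EBP-like motif, were found on either strand in 2 of the 7 (10.8% of 32851 promoters), the CRE core TGACGT in 1 (7.51%), the nuclear receptor core AGGTCA in 0 (16.3%) and TATAAA in 0 (13.6%). No match overlapped another. The 3 promoters with a match are shown 5′ to 3′, with each match in capitals.
Cidec, minus strand, chr6:113434715-113435014: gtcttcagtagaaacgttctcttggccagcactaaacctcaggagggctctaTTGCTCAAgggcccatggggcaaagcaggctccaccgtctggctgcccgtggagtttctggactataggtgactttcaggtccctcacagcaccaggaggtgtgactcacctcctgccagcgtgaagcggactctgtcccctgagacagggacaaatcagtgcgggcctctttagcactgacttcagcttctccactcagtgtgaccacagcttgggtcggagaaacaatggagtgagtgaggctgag
Plin1, minus strand, chr7:79732727-79733026: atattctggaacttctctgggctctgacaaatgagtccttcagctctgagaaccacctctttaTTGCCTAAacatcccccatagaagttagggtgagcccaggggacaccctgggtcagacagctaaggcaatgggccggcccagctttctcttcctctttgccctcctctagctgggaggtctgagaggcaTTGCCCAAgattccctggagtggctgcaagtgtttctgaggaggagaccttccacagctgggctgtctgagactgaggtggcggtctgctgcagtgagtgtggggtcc
Pck1, plus strand, chr2:173152823-173153122: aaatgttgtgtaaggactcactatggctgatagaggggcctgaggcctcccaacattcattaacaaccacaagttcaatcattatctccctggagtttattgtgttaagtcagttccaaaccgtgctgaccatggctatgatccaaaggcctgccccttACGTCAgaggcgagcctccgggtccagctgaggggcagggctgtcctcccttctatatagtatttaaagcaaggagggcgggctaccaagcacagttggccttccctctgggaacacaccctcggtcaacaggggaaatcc
Counting the first transcribed base as 0, TTGCNNAA began at -198 in Cidec and at -187 and -58 in Plin1. In Pck1 the reverse complement of TGACGT began at -91. The promoters of Adipoq, Cfd and Retn and the other start of Cidec held none of the 4 motifs, and a match or its absence in this window says nothing about binding.

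Other genes fell without belonging to the fat group. Tox4, a subunit of a phosphatase complex, read -1.68, 1.61, -0.48 and -1.52 in knockout, against 3.02, 3.39, 3.05 and 2.80 in wild-type ventricles. Its difference was -3.58 ± 0.62 (limma adjusted p = 0.03), but its other probe, above background on all 8 arrays, differed by 0.02. The probes of Tox4 therefore disagreed, and its call ended without any 1 of 9 arrays (up to 0.12).

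Igf2, the fetal insulin-like growth factor, read -2.98, -3.10, -3.25 and -3.23 in knockout, against -1.98, -2.19, -2.03 and -2.39 in wild-type ventricles. It fell by 1.00 ± 0.18 (limma adjusted p = 0.0423), a call that ended after normexp (0.242) and without any 1 of 14 arrays (up to 0.169). Smco2 fell by 1.75 ± 0.30 (adjusted p = 0.0269) and the GTPase regulator Abr by 1.34 ± 0.22 (0.0194). The Smco2 call ended without any 1 of 7 arrays and the Abr call without any 1 of 5 (up to 0.116 and 0.0769). Pi4kb, a Golgi lipid kinase, read -0.48, -0.56, -0.49 and -0.48 in knockout, against 0.50, 0.42, 0.41 and 0.41 in wild-type ventricles. That difference of -0.94 ± 0.10 (adjusted p = 0.000287) exceeded the spread within groups many times, with an SD of 0.04 in each.

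A further 5 called falls were outside the rule for named genes and were chosen after their values were seen. They were Clmn (-1.27 ± 0.24), Glis1 (-0.66 ± 0.12), Reep6 (-0.62 ± 0.11), 6430584L05Rik (-0.57 ± 0.10) and the growth factor gene Hdgf (-0.52 ± 0.10), with limma adjusted p from 0.0306 to 0.0473. The arrays of the genotypes did not overlap for any of the 5. Each call ended when any 1 of 8 to 13 arrays was left out, with adjusted p up to 0.211. The calls of Reep6 and Hdgf also ended with the mean of the gene's probes (0.326 and 0.179).

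The 47 lists held 0 called higher genes, and the 9 rises are given singly. Hebp2, a heme-binding protein, read -1.72, -1.80, -1.73 and -1.74 in knockout, against -4.84, -4.05, -4.11 and -4.13 in wild-type ventricles, where 1 array was above background. The difference was 2.53 ± 0.27 (limma adjusted p = 0.000355), and 0.90 after normexp, still called. Adora3, the A3 adenosine receptor, read -2.08, -1.20, -1.58 and -2.30 in knockout, against -3.64, -3.86, -3.69 and -3.56 in wild-type ventricles, a difference of 1.90 ± 0.22 (adjusted p = 0.000546). Neither gene's arrays overlapped.

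Slco2a1, the prostaglandin transporter, read 0.29, -0.13, -0.19 and 0.49 in knockout, against -1.08, -1.17, -1.09 and -1.11 in wild-type ventricles (1.23 ± 0.18, limma adjusted p = 0.00664). The annexin gene Anxa9 rose by 1.80 ± 0.28 (0.0141). The Anxa9 call ended without wild-type replicate 2 (0.0546) or without knockout replicate 1 (0.0522) or 4 (0.0616). St7l read 1.34, 1.59, 1.63 and 1.32 in knockout, against 0.39, 0.31, 0.43 and 0.36 in wild-type ventricles, and rose by 1.10 ± 0.14 (adjusted p = 0.00181). Cdc23, a subunit of the ubiquitin ligase that drives exit from mitosis, rose by 1.01 ± 0.11 (adjusted p = 0.000497). After normexp the differences were 0.88 for Adora3 (0.012), 0.71 for Anxa9 (0.0486) and 0.43 for Cdc23 (0.0471).

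Smaller rises were those of the surface glycoprotein gene Cd24a (0.74 ± 0.13, limma adjusted p = 0.0342), the heparan sulfate proteoglycan gene Sdc2 (0.70 ± 0.11, 0.0104) and Adam23 (0.62 ± 0.11, 0.0378). The Sdc2 call ended without knockout replicate 4 (0.0536), and those of Cd24a and Adam23 ended without any 1 of 8 and 10 arrays (up to 0.152 and 0.142). Adam23 differed by 0.26 after normexp (0.272) and by 0.42 with the mean of its probes (0.938). Next in order of p, and not called, were the skeletal-type myosin-binding protein gene Mybpc2 (1.10 ± 0.21, adjusted p = 0.0628), Ap4b1 (0.39 ± 0.08, 0.0862) and Dok7 (0.58 ± 0.12, 0.0862). Mybpc2 read 2.91, 3.63, 3.17 and 3.47 in knockout, against 2.14, 2.42, 1.85 and 2.37 in wild-type ventricles, with no overlap. It was called under 5 alternatives that kept all arrays, normexp (0.0273) and median centring (0.0238) among them, and without nulliparous knockout replicate 4 (0.0286).

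The natriuretic peptide system itself gave no call. Of 11 listed genes 8 were tested, and limma called 0 of them, with 0 at an unadjusted p under 0.05 and a median of -0.02. Nppa, which encodes atrial natriuretic peptide, read 9.71, 10.15, 8.89 and 9.70 in knockout, against 9.56, 9.39, 8.66 and 9.01 in wild-type ventricles, and the groups overlapped (0.46 ± 0.34, 95% interval -0.27 to 1.19, limma adjusted p = 0.782). Nppb, for B-type peptide, averaged 7.55 ± 0.41 in knockout and 7.56 ± 0.40 in wild-type ventricles (SD, n = 4 each; difference -0.01 ± 0.39 SE, adjusted p = 0.997).

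The other receptors and the enzymes that process the peptides were close to 0. Npr2, the C-type peptide receptor, differed by -0.09 ± 0.07 and the clearance receptor Npr3 by 0.19 ± 0.18. The converting proteases Corin and Furin differed by -0.19 ± 0.20 and -0.22 ± 0.14, and the degrading enzymes Mme and Ide by 0.17 ± 0.27 and -0.02 ± 0.15 (limma adjusted p from 0.723 to 0.992). The peptide genes Nppc and Ostn were not well above background on any lactating array. Among genes of cyclic GMP synthesis and breakdown, limma called 0 of 19 tested (median 0.03). At an unadjusted p under 0.05, 3 were higher and 1 lower, beside 4.24% and 4.9% of all genes. The regulator Rgs2 differed by -0.57 ± 0.19 and the phosphodiesterase Pde10a by 0.61 ± 0.22 (adjusted p of 0.324 and 0.373).

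None of 13 tested marker genes of hypertrophy, fibrosis and metabolism was called. Acta1, the skeletal actin of the fetal programme, read 7.68, 7.78, 7.51 and 8.49 in knockout, against 5.73, 7.57, 6.83 and 7.30 in wild-type ventricles (1.01 ± 0.42, limma adjusted p = 0.484). Knockout replicate 3 lay below the highest wild-type array. The slow myosin Myh7 differed by -0.16 ± 0.63, the adult myosin Myh6 by -0.25 ± 0.13 and the stress gene Ankrd1 by 0.34 ± 0.27 (adjusted p from 0.594 to 0.986).

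The matricellular gene Ccn2 read 6.08, 5.77, 5.22 and 5.60 in knockout, against 6.64, 6.57, 6.39 and 6.24 in wild-type ventricles, with no overlap. Its difference was -0.79 ± 0.20 (limma adjusted p = 0.172), and it was called with array weights (0.0496). The collagens Col1a1 and Col3a1 differed by -0.02 ± 0.24 and -0.01 ± 0.36. The matrix gene Postn differed by 0.71 ± 0.28 and the protease inhibitor Timp1, whose arrays did not overlap, by 0.61 ± 0.28 (adjusted p of 0.448 and 0.532). The mineralocorticoid receptor gene Nr3c2 differed by 0.58 ± 0.29 and the pyruvate dehydrogenase kinase Pdk4 by -0.85 ± 0.46 (0.594 and 0.637). The cytokine gene Il6 was above background on 3 knockout arrays and 1 wild-type array and was not tested.

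**Figure D3:**
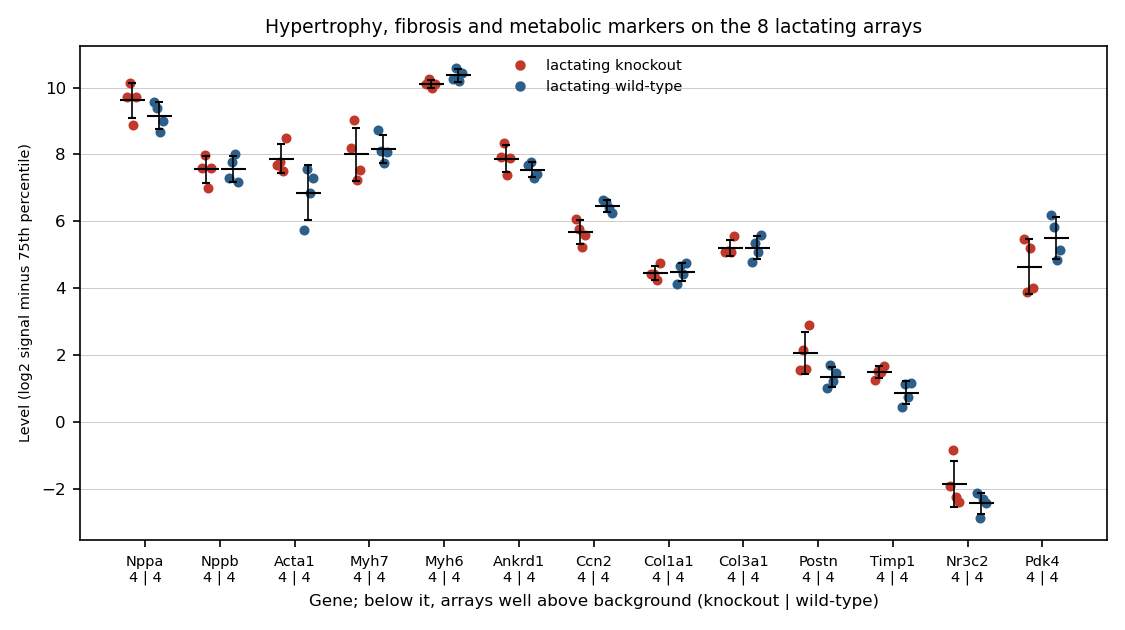
Levels (log2 signal minus the 75th percentile) of the 13 tested marker genes on each of the 8 lactating arrays. Points are arrays, knockout left of wild-type, and lines are the mean ± SD of 4. Ccn2 and Timp1 are the 2 markers whose arrays do not overlap between genotypes.

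Gene groups of the stressed heart held no called member. Over all genes 4.24% were higher and 4.9% lower at an unadjusted p under 0.05. In the hypertrophy and fetal programme list, limma called 0 of 29, with 7 higher and 2 lower at that p and a median of 0.05. Its higher members included the thin-filament gene Xirp2 (0.54 ± 0.13, adjusted p = 0.13) and the ubiquitin hydrolase gene Uchl1 (1.07 ± 0.33, 0.263), and its lower ones Ccn2 and the slow troponin Tnni1 (-0.73 ± 0.26, 0.357). In the extracellular matrix list it called 0 of 33, with 3 higher and 0 lower at that level. The largest was Ltbp2, at 1.52 ± 0.75 in knockout and 0.57 ± 0.27 in wild-type ventricles (SD, n = 4 each, limma adjusted p = 0.238). The matrix median of 0.15 was 0.05 without knockout replicate 4.

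The lists of TGF-beta family genes, of Wnt genes and of renin, aldosterone and corticosteroid targets likewise gave no call. The insulin-like growth factor and neuregulin list held 1 called gene of 17 tested, Igf2. Among TGF-beta family genes limma called 0 of 25, with 4 higher and 0 lower at an unadjusted p under 0.05, led by the target Id1 (0.96 ± 0.26, adjusted p = 0.206). Among Wnt genes it called 0 of 20, with 6 higher and 2 lower, led by the secreted antagonist Sfrp1 (0.61 ± 0.15, 0.158). In the list of renin, aldosterone and corticosteroid targets it called 0 of 25, with 0 higher and 3 lower (median -0.12), Agt among them (-0.40 ± 0.12, 0.268). These medians and counts are set beside an all-gene median of -0.0005 and shares of 4.24% higher and 4.9% lower.

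Immune lists went either way. Below 0 were 12 of 19 IL-6 family and acute-phase genes, 4 of 6 T and NK cell markers and all 4 neutrophil markers. Above 0 were 18 of 21 chemokine and adhesion genes, 14 of 21 complement and Fc genes and 3 of 4 B cell markers. Most members of 3 further immune lists had positive differences, and limma called 0 of them. All 7 tested genes of the MHC class II list had a difference above 0, with a median of 0.64. At an unadjusted p under 0.05, 4 of them were higher, beside 4.24% of all genes. H2-DMb1, which helps load peptides, read 1.12, 0.79, 0.80 and 1.24 in knockout, against -0.84, -0.30, -0.15 and 0.35 in wild-type ventricles (1.23 ± 0.28, limma adjusted p = 0.119). The invariant chain Cd74 differed by 0.77 ± 0.24 (0.287). The mean level of the list overlapped, at 0.24 to 1.52 in knockout and -0.00 to 1.05 in wild-type ventricles. With array weights 6 of the 7 were above 0 and 1 was called, and on slide 1 alone 5 were above 0.

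At an unadjusted p under 0.05, 1 interferon response gene was higher, beside 4.24% of all genes. All 23 tested interferon response genes differed by more than 0 (median 0.28), with 0 called by limma. Their mean level was 0.91 to 1.44 in knockout and 0.63 to 1.00 in wild-type ventricles. The median was 0.39 on slide 1 and 0.07 on slide 2, where 8 genes were below 0, and it was 0.13 without knockout replicate 2. With array weights 21 of the 23 were above 0 and the median was 0.20. The interferon-inducible genes Gbp2b and Ifi202b, which are not among the 23, had negative differences and were not called. Of 13 macrophage markers 10 were above 0 (median 0.32), with a mean level of 1.31 to 1.63 in knockout and 0.85 to 1.27 in wild-type ventricles and no overlap. Fcgr1, a receptor for antibodies that was above background on 3 wild-type arrays, differed by 0.89 ± 0.25 (limma adjusted p = 0.224). The part of macrophage content in the MHC class II values was not tested.

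The muscle and mitochondrial lists held small differences. Limma called 0 of 13 cardiomyocyte markers, 0 of 23 fatty acid oxidation genes and 0 of 28 oxidative phosphorylation genes. Of these 12, 22 and 26 lay below 0, with medians of -0.14, -0.08 and -0.10. Median centring, which moved the median of all genes to 0.07, left 7, 13 and 18 below 0 and, as it shifts all genes alike, kept the medians less the all-gene median at -0.14, -0.08 and -0.10. With quantile normalization 6, 16 and 16 lay below 0, and the cardiomyocyte median turned to 0.01. The fatty acid carrier Fabp3 (-0.23 ± 0.08) and the oxidase subunit Cox8b (-0.27 ± 0.10) had arrays that did not overlap and were not called (adjusted p of 0.331 and 0.373). In the list of PPAR targets and lipid handling, 1 of 35 was called, the fat-droplet gene Cidec.

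The group means of the nulliparous comparison rested on other arrays. Its filter and its estimate of each gene's spread were shared with the lactating one, so calls in both states are not independent. In nulliparous ventricles limma called 14 genes (0.0996%), 10 higher (0.0711%) and 4 lower (0.0284%). Of all genes 8.63% had an unadjusted p under 0.05 in nulliparous mice, in either direction. Of the 28 genes called in lactation 19 had the same sign there, 11 of these at such a p. In nulliparous mice 4 were called too: Anxa9, Cidec, Cfd and Igf2. These 4 were 14.3% of the lactating and 28.6% of the nulliparous calls. Nulliparous differences were 1.64 ± 0.28 for Anxa9, -1.92 ± 0.30 for Cidec, -2.14 ± 0.35 for Cfd and -1.09 ± 0.18 for Igf2 (adjusted p of 0.0417, 0.0265, 0.0282 and 0.0375). For the 7 tested adipocyte markers the nulliparous median was -1.52.

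The test of the difference between the 2 states called 13 genes (0.0924%), 3 higher (0.0213%) and 10 lower (0.0711%), of which 6 were among the 28. The fitted difference was lower in lactation by 2.75 ± 0.42 for Cidec and by 2.84 ± 0.47 for Pck1 (limma adjusted p of 0.018 and 0.0309), with knockout values that were not above background in lactation. It was higher in lactation by 2.03 ± 0.31 for Adora3, by 1.65 ± 0.20 for St7l and by 1.07 ± 0.16 for Cdc23 (0.0161, 0.0024 and 0.0161). Nulliparous values were -0.14 ± 0.22, -0.55 ± 0.14 and -0.06 ± 0.11 for these. Pi4kb, lower by 0.94 in lactation, was 0.28 ± 0.10 in nulliparous mice (interaction -1.22 ± 0.14, 0.00169). For Adipoq, Cfd, Retn and Plin1 the 2 states were not called different (adjusted p from 0.297 to 0.864).

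**Figure D4:**
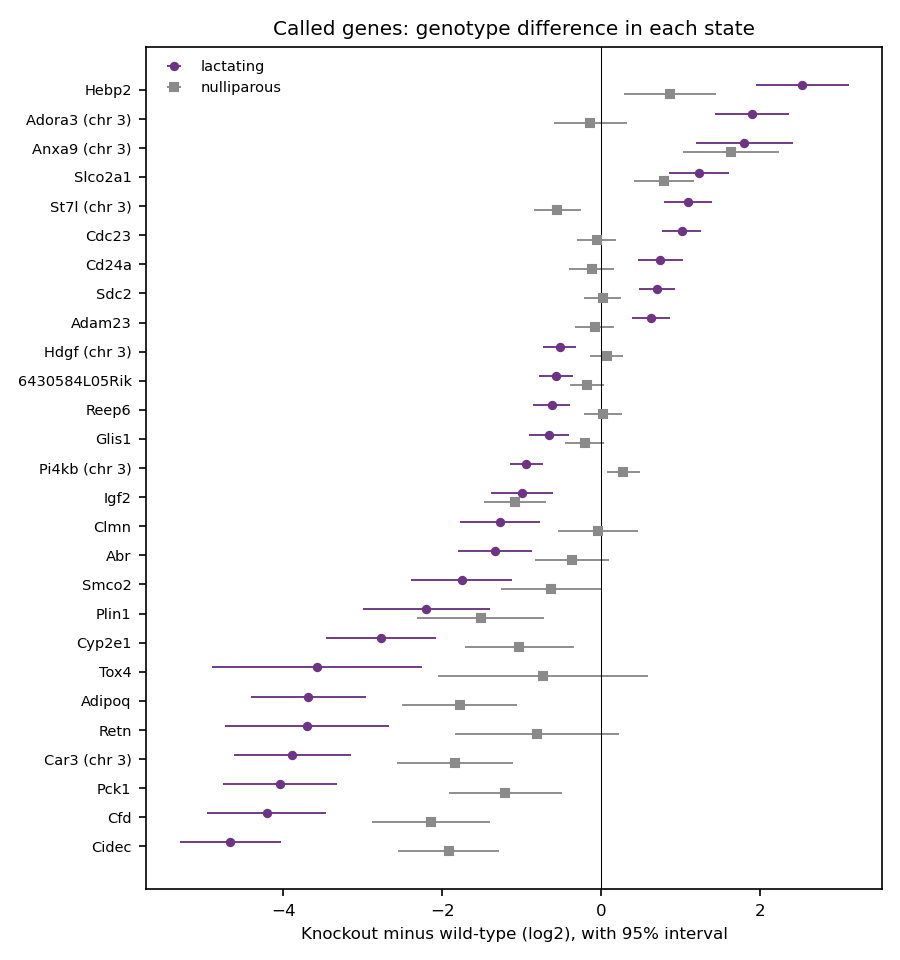
Knockout minus wild-type difference (log2) of 27 of the 28 genes called in lactating ventricles, with limma's 95% interval, in lactating (circles) and nulliparous (squares) mice. The adipocyte genes lie below 0 in both states and further below in lactation. Adora3, St7l, Cdc23, Cd24a, Adam23, Pi4kb, Hdgf and Reep6 lie on opposite sides of 0 between the states. Of these, only St7l and Pi4kb have both intervals clear of 0.

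The 8 smallest interaction p-values included 4 genes that were not called in lactation. Tchhl1, a hair follicle structural gene, differed by -0.44 ± 0.29 in lactating ventricles. In nulliparous ones it was not well above background on any wild-type array and was 8.53-fold higher in knockout at its bound (interaction limma adjusted p = 8.33e-05). The related Tchh differed by -0.09 ± 0.26 in lactation and was 3.87-fold higher in nulliparous knockout ventricles, by the same kind of bound (0.00932). Plaat1, a phospholipid-modifying enzyme, read 2.71, 2.70, 2.65 and 2.60 in lactating knockout, against 2.44, 2.55, 2.56 and 2.30 in lactating wild-type ventricles, and differed by 4.16 ± 0.32 in nulliparous ones (0.00169). The smooth muscle actin Actg2 differed by -0.07 ± 0.11 and 0.97 ± 0.11 (0.0137).

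Chromosome 3 carries Npr1. There 6 of 670 tested genes were called (0.896%), against 22 of 13393 on the other chromosomes (0.164%), and 101 (15.1%) against 1184 (8.84%) had an unadjusted p under 0.05. Single other chromosomes came close, with 5 of 685 genes called on chromosome 10 (0.73%) and 14.6% at that unadjusted p on chromosome 18. The called genes of chromosome 3 were Anxa9, St7l and Adora3, which rose, and Pi4kb, Hdgf and Car3, which fell. Counted in tested genes along the chromosome, Pi4kb lay 40, Anxa9 56, St7l 160 and Adora3 168 places after Npr1. Hdgf lay 79 and Car3 276 places before it.

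In bins of 50 tested genes, 15 of the genes 151 to 200 places after Npr1 (30%) had an unadjusted p under 0.05. The next bins outward held 2, 4 and 3 of 50, or 4% to 8%. Toward the other end of the chromosome the bins held 10% to 22%, and the 3 bins just after Npr1 held 14% to 24%. Of the 13 genes called for the difference between states 6 were on chromosome 3 as well. The labels used here do not give the strain origin of the region around the deleted gene, and its part in these counts was not tested.

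**Figure D5:**
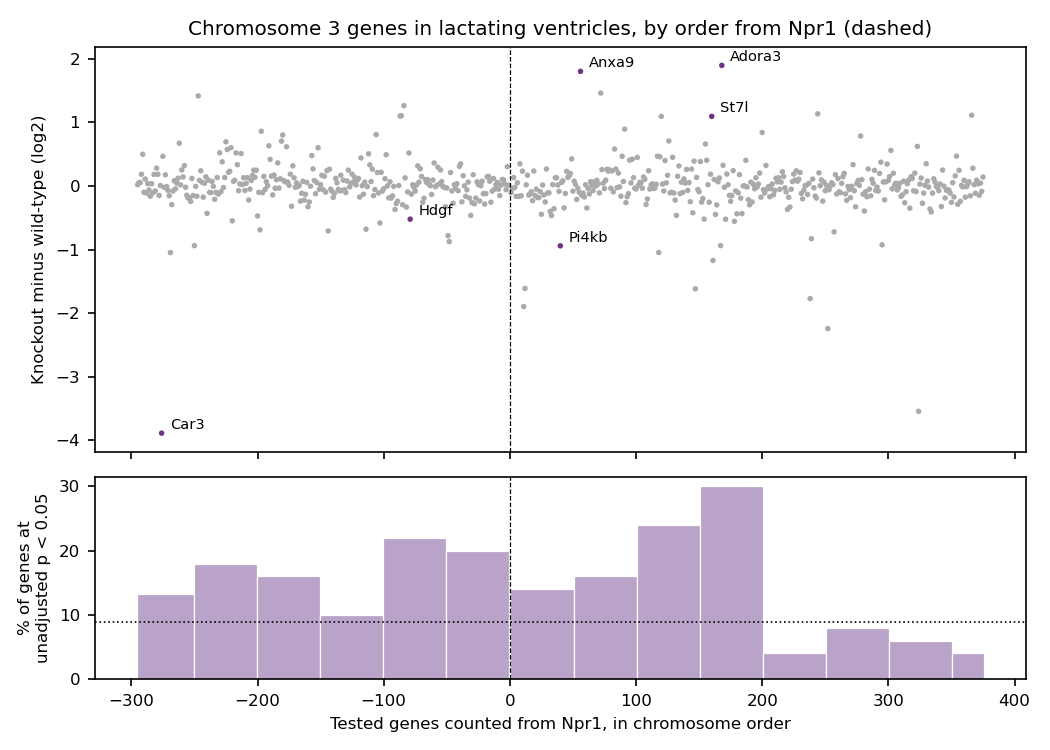
Upper panel: knockout minus wild-type difference (log2) in lactating ventricles of each tested chromosome 3 gene, placed by its order from Npr1 (dashed line), with the 6 called genes named. Lower panel: percentage of genes per bin of 50 tested genes (fewer at the ends) with an unadjusted p under 0.05, against 8.84% on the other chromosomes (dotted), highest at 30% for places 151 to 200.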

How the data were processed

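Ventricular RNA of 16 female mice was measured on 1-colour Agilent arrays, 1 mouse per array, from 200 ng of total RNA labelled with Cy3, per the labels' protocols. The authors deposited scanner output from Agilent Feature Extraction 10.7.3.1 with a processed intensity per spot, background-subtracted and detrended within the array but not scaled between arrays, per the file headers. A second deposited table by the authors gives log2 values. Its scale, centring and direction were found by comparison: each column followed (r = 1) the scanner log2 value minus the array's 75th percentile and the nulliparous wild-type mean, with column medians from -0.3824 to 0.0318, and it served as an alternative.

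Control spots and flagged outliers were left out, and the 59305 other spots were averaged into 55681 probes. Symbols came from RefSeq accessions through a gene table (GRCm38.p6), which named 27793 of 28167 probes with such an accession. The array headers name another build, so gene coordinates are given only for RefSeq promoters. A symbol was found for 28026 probes and not for 27655. Of 21154 genes, 5681 had more than 1 probe, and the brightest was used. Of the 14063 tested genes 90 had an outlier value on some array, which the fit dropped, and no spot was saturated.

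The model had 4 group means and was estimated over the 16 arrays by limma, version 3.58.1 (lmFit, eBayes, 12 residual degrees of freedom, two-sided), in R 4.3.3 with the packages data.table (version 1.17.8) and jsonlite (2.0.0). The script was tested on simulated data. A gene "not well above background" on any array of a group is given as a bound. Each such array was set at the gene's own value or the array's lowest signal well above background, whichever was higher. That signal is not a detection limit, as a probe that read above it could still fail. Tchh read -4.20 on nulliparous wild-type replicate 1 and failed, where the lowest such signal was -4.26. Named genes were Npr1, 14 markers and the 12 largest rises and falls among non-overlapping calls (placeholder symbols left out, filled by p). Up to 4 called members per list and the natriuretic list were also named. So were the 8 genes of smallest interaction p, genes called in the same direction in both states, and markers that describe a cell type list. The count of 28 calls includes 1 gene that is not reported here. Other uncalled genes were named after their values were seen. The 47 gene lists, 33 of pathways and 14 of cell types, and the members were chosen with earlier results of these data known. The number of arrays limits the precision. Replicates are separate mice, per the series' design text. Alternatives were normexp (on median spot signals), quantile normalization, median centring, other filters, the mean of a gene's probes, only the groups compared, trended robust variance, array weights, replicate and slide blocks, single slides, the deposited log2 table, and each array left out in turn. Same-numbered lactating arrays of the 2 genotypes correlated at 0.1672, -0.0457, 0.0973 and 0.1632 in their deviations. Differently numbered ones correlated at -0.2607 to 0.1128. The main fit did not take the numbers as pairs, and these values do not settle whether they mark pairs. Figures used matplotlib 3.10.9.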

Additional observations from a re-analysis of the deposited data

Results flagged for a closer look

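Dixon's test set 1 array apart from the other 3 of its group in 7 of 108 values, where chance gives about 1 in 20. Lactating knockout replicate 4 stood high for Col3a1 (5.55) and Cidea (5.001). Knockout replicate 2 stood low for Pi4kb (-0.56) and knockout replicate 1 high for Hdgf (4.36). Among wild-type arrays, replicate 1 stood low for Hebp2 (-4.84) and high for Npr3 (0.54) and Pi4kb (0.50).

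The genotype difference in lactation minus that in nulliparous mice passed limma's adjusted p for 10 named genes. It was positive for Adora3 (2.03, adjusted p = 0.0161), St7l (1.65, 0.0024) and Cdc23 (1.07, 0.0161). It was negative for Cidec (-2.75, 0.018), Pck1 (-2.84, 0.0309), Pi4kb (-1.22, 0.00169), Tchhl1 (-4.96, 8.33e-05), Plaat1 (-3.96, 0.00169), Tchh (-2.72, 0.00932) and Actg2 (-1.04, 0.0137). The sizes for Cidec, Pck1, Tchhl1 and Tchh rest on a group that was not well above background on any array and are not measured sizes.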

How the results depend on the processing

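All 28 called differences kept their sign under every alternative that gave a value. Outside fits within 1 slide, Adora3, Cdc23, Cfd, Cyp2e1, Pi4kb, Slco2a1 and St7l stayed called throughout. Adipoq, Car3, Cidec, Hebp2 and Pck1 did wherever they were tested, which a filter on all 16 arrays did not allow. Against 28 calls in lactating, 14 in nulliparous ventricles and 13 for the difference between them, normexp gave 44 and 7 in the first 2. No filter gave 17 and 6, a filter on all 16 arrays 18, 5 and 6, and array weights 204, 235 and 70. Slide 1 alone gave 16, 6 and 6, and slide 2 alone gave 4 in lactation and 1 for the difference. A fit of only the groups compared gave 29 calls in lactation, of which 15 were among the 28, and ended the other 13, Retn (0.0545), Plin1 (0.0916), Tox4 (0.108), Abr (0.136) and Smco2 (0.152) among them. With the replicate block the counts were 27, 9 and 9, and 6 of the 28 calls ended, Plin1 (0.0794) among them. The main fit did not take the numbers as pairs, and whether they mark pairs was not settled. Leaving out 1 array gave 13 to 48 calls in lactation, 7 to 20 in nulliparous ventricles and 10 to 20 for the difference. In lactation there were 13 calls without knockout replicate 4, 18 without knockout replicate 1 or wild-type replicate 2, 16 without nulliparous wild-type replicate 1 and 48 without nulliparous knockout replicate 4. A lone slide has 2 arrays a group. Why the counts moved was not tested. Signals near background also limit the size of the differences.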

Other observations

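The 4 differences of greatest size that limma did not call came from genes whose arrays fell at separate levels within a group, and they were chosen after their values were seen. Syt10, a calcium sensor of vesicle release, read -4.45, 3.97, -2.16 and -5.18 on knockout replicates 1 to 4, against 5.39, 4.84, 5.58 and 4.31 on the wild-type replicates (-6.99 ± 1.57, limma adjusted p = 0.11). Prm1, a sperm chromatin protein, read -6.52, -2.03, -5.70 and -6.26 in knockout, against -0.60, -1.15, -0.55 and -2.26 in wild-type ventricles (-3.99 ± 0.92, 0.123). Knockout replicate 2 was the highest knockout array for both, and for Tox4.

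The other two were interferon-inducible genes. Gbp2b was well above background on 0 knockout and 3 wild-type arrays (limma adjusted p = 0.275), so no size is given. Ifi202b, above background on 2 knockout and 4 wild-type arrays, differed by -3.26 ± 1.33 (0.476). It read -6.89, -6.53, 0.85 and -0.40 in knockout, against -0.81, 1.15, -0.25 and -0.02 in wild-type ventricles.

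All 4 tested neutrophil markers had negative differences, and limma called 0 of them. At an unadjusted p under 0.05, 2 of them were lower, beside 4.9% of all genes. S100a8, a calcium-binding alarmin, read -3.18, -2.32, -3.38 and -3.16 in knockout, against -2.49, -1.09, -0.05 and -0.83 in wild-type ventricles (-1.90 ± 0.68, limma adjusted p = 0.363), and S100a9 differed by -1.61 ± 0.49 (0.27). With quantile normalization or normexp 3 of the 4 were below 0, and on slide 1 alone 2 were. Median centring, which shifts all genes alike, also left 3 below 0, with the median less the all-gene median at -0.85 as before. Haptoglobin, Hp, differed by -2.04 ± 0.56 with no overlap (0.218), and the endotoxin-binding protein gene Lbp by 0.85 ± 0.20 (0.126). Of 21 tested chemokine and adhesion genes 18 had positive differences (median 0.34), and limma called 0. At an unadjusted p under 0.05, 2 of the 21 were higher and 2 lower, beside 4.24% and 4.9% of all genes. The mean level of the 21 was -0.45 to -0.01 in knockout and -1.03 to -0.49 in wild-type ventricles. Among them, Cxcl14 differed by -1.12 ± 0.25 (0.11) and the monocyte attractant Ccl8 by 1.11 ± 0.34 (0.267).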
